A study of Mus musculus with 8 samples.

Results

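The tumour suppressor p53 and the caspases were followed through RNA-seq of pancreatic islets from mice in which Sirt6 was deleted. Sirt6 is an NAD-dependent sirtuin that acts on chromatin, with known roles in genome maintenance. The group held 30 genes of known p53 biology, chosen by symbol, and all 30 were rows of the deposited table of 22609 genes. It covered Trp53 itself, its regulators, its best known target genes, the caspases Casp6, Casp8 and Casp9, the apoptosome scaffold Apaf1, and the cell cycle inhibitors Cdkn2a and Cdkn2b. All 30 also passed the filter on low counts that left 15041 genes for testing.

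There were 4 groups of 2 libraries. BKO mice carried MIP1-CreERT with Sirt6 f/f, a tamoxifen-inducible Cre driven in beta cells, and islets were taken 2 weeks after tamoxifen. The BKO controls carried MIP1-CreERT too, with Sirt6 f/+ in replicate 1 and Sirt6 +/+ in replicate 2, and the labels do not say whether they received tamoxifen. EKO mice carried Ngn3-Cre, active in endocrine progenitors, with Sirt6 f/f, and their controls Ngn3-Cre with Sirt6 +/+. All mice were male, of mixed background and 8 to 9 weeks old, so every group carried a Cre and no group was without one. Apart from the BKO controls, whose genotypes differ, the labels leave it unsaid whether replicates were different animals, so p-values measure the spread between these libraries, which may be technical.

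In unstressed cells p53 is kept low because Mdm2, one of its own targets, marks it for degradation, while Mdm4 blocks its activity. DNA damage stabilises the protein, which then binds paired decamer elements near its targets and switches on genes for growth arrest, repair and death. Because p53 is controlled mainly as a protein, the mRNA of its targets is the usual RNA readout of its activity. Caspases are proteases made as inactive precursors, so their mRNA does not report their activity. In mouse islets Cdkn2a is known as a brake on beta cell replication.

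Promoter sequence is shown for the genes with the closest match to the element that p53 reads. RefSeq (GRCm38.p6) promoters of 300 bases, 250 before and 50 after each start, were available for 23 of the 30 genes, 30 promoters in all. They were compared with the p53 response element consensus, written as adjacent decamers without a spacer. This consensus is its own reverse complement, so a match counts for both strands. Only Ccng1, at 1 promoter, and Cdkn1a, at the upstream of its 2 promoters, held a stretch of 20 bases that matched at 19 positions, as did 0.0883% of all 32851 promoters. They are printed up to the start, with that stretch in capitals.
Ccng1 promoter, minus strand of chr11:40755287-40755536: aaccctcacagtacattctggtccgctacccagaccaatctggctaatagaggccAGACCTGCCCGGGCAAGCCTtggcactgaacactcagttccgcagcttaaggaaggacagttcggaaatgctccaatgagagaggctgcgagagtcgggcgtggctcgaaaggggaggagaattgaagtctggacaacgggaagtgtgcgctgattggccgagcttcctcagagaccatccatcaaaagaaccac
Cdkn1a upstream promoter, plus strand of chr17:29090729-29090978: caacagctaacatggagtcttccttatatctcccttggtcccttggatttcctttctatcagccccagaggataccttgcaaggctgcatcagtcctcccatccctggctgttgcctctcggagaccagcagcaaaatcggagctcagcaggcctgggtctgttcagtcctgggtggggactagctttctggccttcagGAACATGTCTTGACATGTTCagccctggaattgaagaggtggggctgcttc
The stretch lay 195 to 176 bases before the Ccng1 start and 51 to 32 bases before this Cdkn1a start. A further 5 genes (Aen, Mdm4, Polk, Sesn1 and Trp53) matched at 17 positions, a score reached or passed by 6.29% of all promoters. A match is a description of the letters, and elements farther away or within introns were outside these windows.

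Reads assigned to genes numbered 22330252 to 44442165 per library. Levels are given as CPM, a gene's reads scaled to the size of its library with TMM factors. Sirt6 itself was at 16.8 and 22.8 CPM in BKO libraries against 18.8 and 12.6 in their controls, and at 24.2 and 21.6 CPM in EKO libraries against 24.4 and 16.96, and since a count over the whole gene can include exons that are not floxed it does not check the genotypes. The tissue label fitted the markers, with 10 beta cell genes summing to 168033 to 307855 CPM and 7 alpha cell genes to 9211 to 37834 CPM. The EKO model was uneven within its groups. In EKO control replicates 1 and 2 the summed acinar list (20 genes) was at 8604 and 602 CPM and the stellate and fibroblast list (8 genes) at 2447 and 28.8 CPM, and in EKO replicates 1 and 2 these were at 2325 and 248 CPM and at 984 and 122 CPM. In bulk islets fewer cells of a type and less RNA per cell cannot be told apart.

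In control islets 4 growth arrest genes stood highest, and Tnfrsf10b, Cdkn2a and Eda2r lowest. Per kb of exon (union of GENCODE M21 exons), Btg2, an antiproliferative early response gene, was first with a median of 75.3 CPM per kb over the 4 controls, from 71.6 to 203. Ccng1 (cyclin G1) followed with 43.5, then Plk3, a stress-activated polo-like kinase, with 33.0, Cdkn1a, which encodes the cyclin-dependent kinase inhibitor p21, with 33.0, and Sesn2, a sestrin that restrains mTORC1, with 24.3. The ranges of Ccng1 (34.5 to 57.0), Plk3 (26.0 to 39.5) and Cdkn1a (28.7 to 42.1) overlapped, so these neighbours did not differ beyond their spread. Mdm2 stood at 18.6 and Trp53 at 10.2 CPM per kb. Among the death genes Casp8, the initiator caspase of death receptors, was at 6.87, Casp9, the initiator of the mitochondrial route, at 3.20, Apaf1 at 2.34 and the executioner Casp6 at 1.69 CPM per kb. The lowest were Tnfrsf10b, the mouse TRAIL receptor, at 1.11, Cdkn2a at 0.635 and the ectodysplasin receptor gene Eda2r at 0.560 CPM per kb. Cdkn2a rested on 14 to 61 reads per library, and its p16 and p19ARF products cannot be separated in a gene count.

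**Figure D1:**
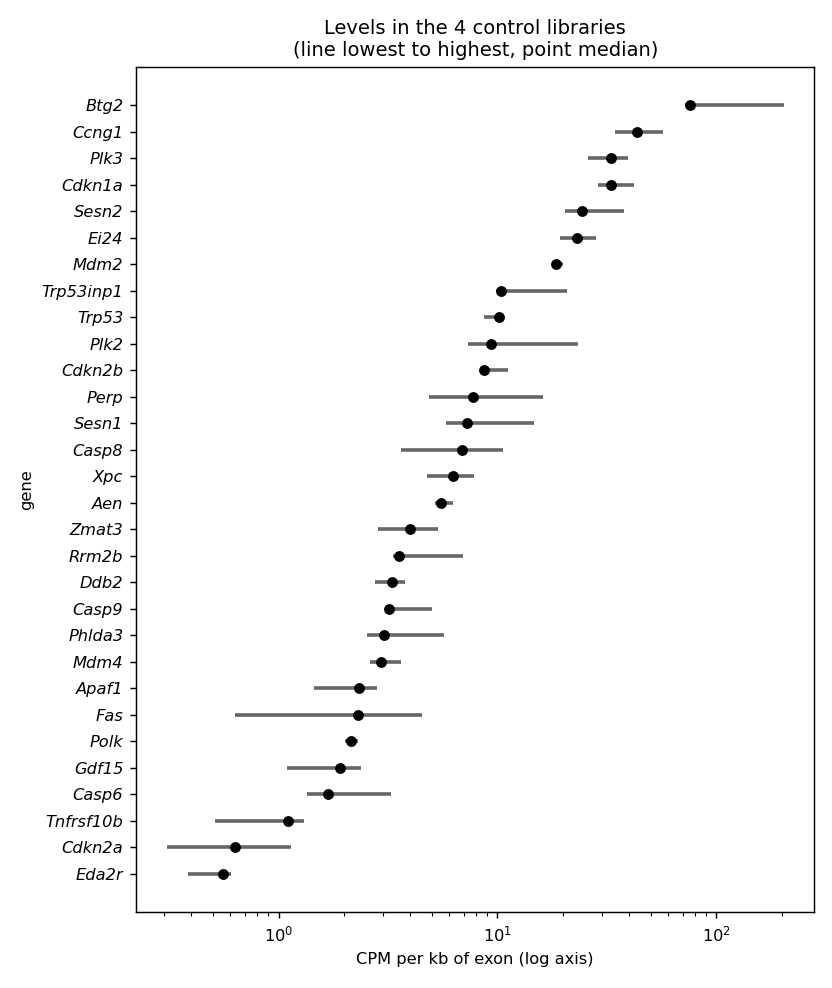
Levels of the 30 genes in the 4 control libraries as CPM per kb of exon on a log axis, with lines from the lowest to the highest control and points at the median. Btg2 was highest at a median of 75.3, and Eda2r lowest at 0.560.

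The main question put to these genes was whether loss of Sirt6 moved them. None of the 30 passed in BKO or in EKO, in their average or in their difference, with edgeR's quasi-likelihood test (Benjamini-Hochberg adjusted p under 0.05), where 0.0% of all genes passed in BKO and 0.00665% in EKO. At an unadjusted p under 0.05 there were 0 members in BKO, against 0.977% of all genes, and 0 in EKO, against 3.7%. DESeq2 and limma-voom likewise called 0 members in each comparison after adjustment. DESeq2 and limma-voom each put 1 member, Ccng1 in EKO, under an unadjusted p of 0.05, and 0 in BKO. Over all genes their shares were 3.78% and 2.97% in EKO and 1.15% and 1.37% in BKO. The EKO count under 0.05 was 5 when EKO control replicate 1 was left out, against 7.09% of all genes in that fit, and 5 when its fellow replicate 2 was left out, against 10.3%. It was 2 without EKO replicate 2, against 3.0% of all genes. No adjusted p of a member in EKO was below 0.371 under any alternative run. The 95% interval of the median member reached 1.72-fold to either side of its estimate in each model, and that of Mdm2, the narrowest, ran from 0.793 to 1.34 in BKO. The authors' deposited tables of their own differential genes list 0 of the 30. They hold 99 genes in BKO and 243 in EKO, against 22609 genes counted, so few of any 30 genes would be listed. Their smallest absolute log2 fold changes were 0.588 in BKO and 0.586 in EKO. By the authors' adjusted p, 70 and 33 of the listed genes were under 0.05, so their threshold is unlike the one used here.

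Estimates lay above 0 for 21 of 30 genes in BKO, against 51.1% of all genes, with a median log2 fold change of 0.07 against 0.01 over all genes. In EKO 22 of 30 lay above 0, against 48.6% of all genes, with a median of 0.32 against -0.01 over all genes. The EKO median was 0.19 without EKO replicate 1, the library that moved it most. Some marker lists of other cell types leaned one way between the same groups. In BKO and in EKO 0 acinar and 0 stellate genes had an unadjusted p under 0.05 (edgeR). The 17 acinar genes tested lay lower in 17 of 17 in BKO, with the list at 246 and 85.8 CPM against 833 and 655. In EKO 16 of 17 lay lower, as did 8 of 8 stellate and 6 of 7 alpha cell genes. Of the alpha genes 2 had an unadjusted p under 0.05 there. The summed acinar and stellate lists of EKO and its controls overlapped. Immune genes lay higher in 9 of 11 in BKO and lower in 8 of 11 in EKO. With the acinar level as a covariate the 30 genes had a median of 0.19 (BKO) and 0.31 (EKO), and the part of the other lists was not tested. Both EKO libraries lay above both controls for 9 of the 30 genes, against 12.5% of all genes, and 0 lay below, against 9.57%. In BKO this was so for 7 genes above (23.3%, against 16.3%) and 1 below (3.33%, against 13.8%). The genes above in both models were Trp53inp1, Cdkn1a, Cdkn2b, Phlda3 and Ei24, 16.7% of the 30 against 4.47% of all genes, and 0 were below in both, against 2.6%.

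**Figure D2:**
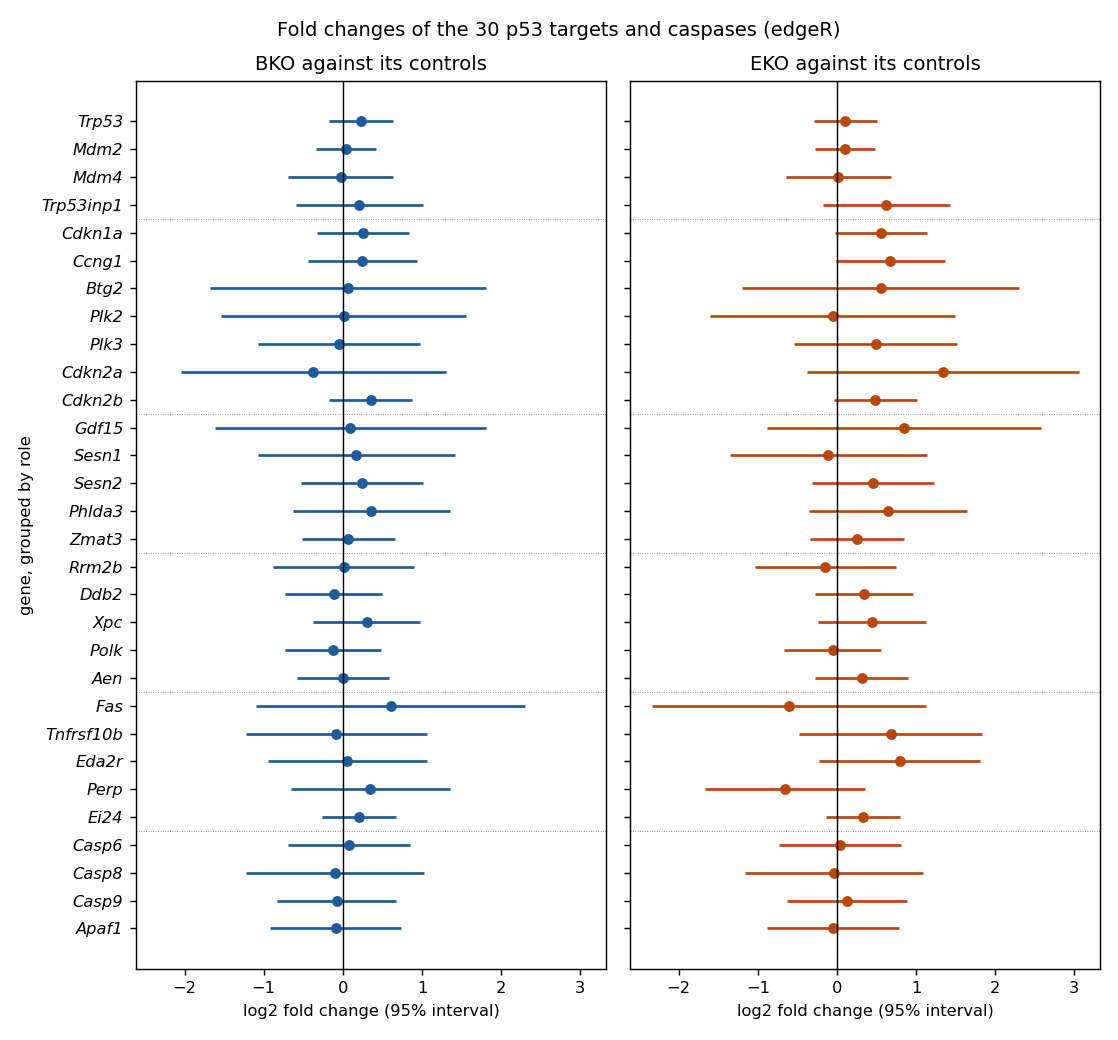
Log2 fold changes of the 30 genes in BKO (left) and EKO (right) against the controls of each model, with lines for the 95% interval from edgeR (2 libraries per group). Every interval holds 0, with the lower ends for Ccng1 and Cdkn1a in EKO at -0.01 and -0.03.

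Among p53 and its regulators, Trp53 had groups that stayed close. Its mRNA had 39.9 and 43.2 CPM in BKO controls and 45.2 and 52.3 with the knockout, and 42.6 and 34.9 CPM in EKO controls and 43.4 and 40.1 with the knockout. The BKO libraries lay above their controls and the EKO libraries overlapped theirs, with log2 fold changes of 0.23 ± 0.17 (SE, n = 2 per group) and 0.11 ± 0.17. Mdm2, both a target of p53 and its main inhibitor, was at 107 and 93.3 CPM in BKO libraries against 93.5 and 101 in their controls, and at 111 and 90.4 CPM in EKO libraries against 95.4 and 92.3. Groups overlapped in both models, and the 95% intervals of the fold, 0.793 to 1.34 in BKO and 0.828 to 1.40 in EKO, were the narrowest of the 30. Mdm4 had log2 fold changes of -0.03 ± 0.27 and 0.01 ± 0.28.

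Trp53inp1, a nuclear protein that p53 induces and that promotes its phosphorylation, had 67.3 and 66.7 CPM in BKO controls and 80.3 and 74.6 with the knockout, and 63.9 and 134 CPM in EKO controls and 135 and 170 with the knockout. Knockout libraries lay above controls in both models, but in EKO the nearest control and knockout libraries were almost level, and the controls lay farther apart than the knockouts. The log2 fold changes were 0.21 ± 0.33 and 0.62 ± 0.33 (adjusted p = 1 in each). The EKO value was 0.15 with EKO control replicate 1 left out and 1.26 with EKO control replicate 2 left out.

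The growth arrest genes held the EKO estimates closest to the threshold. Cdkn1a was at 124 and 144 CPM in BKO libraries against 102 and 123 in their controls, and at 225 and 158 CPM in EKO libraries against 150 and 111. Every knockout library lay above the controls of its model, in BKO with the nearest libraries almost level. Its fold was 1.19 in BKO (95% interval 0.795 to 1.78) and 1.47 in EKO (0.980 to 2.20), with adjusted p of 1. Without 1 library at a time the EKO log2 fold change stayed between 0.28 (without EKO replicate 1) and 0.79 (without EKO replicate 2).

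Ccng1, a cyclin that p53 induces and that recruits a phosphatase to Mdm2, had 131 and 175 CPM in BKO controls and 195 and 168 with the knockout, and 121 and 200 CPM in EKO controls and 227 and 286 with the knockout. The groups overlapped in BKO, and in EKO both libraries lay above both controls. Its fold was 1.19 in BKO (0.738 to 1.91), and in EKO it had a log2 fold change of 0.67 ± 0.29, a 95% fold interval of 0.990 to 2.57, with adjusted p of 1. That log2 fold change was 0.32 with EKO control replicate 1 left out and 1.09 with EKO control replicate 2 left out. Ccng1 and Cdkn1a had the smallest unadjusted p of the 30 in EKO (edgeR, 0.0537 and 0.0591), close to that of Cdkn2b (0.0665), and none passed after adjustment. Their promoters are the ones printed, and a link between the matched stretch and the EKO estimates was not tested.

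Cdkn2b, which encodes the CDK4 and CDK6 inhibitor p15, was at 15.2 and 15.5 CPM in BKO libraries against 11.5 and 12.5 in their controls, and at 19.7 and 18.4 CPM in EKO libraries against 15.6 and 11.7. All knockout libraries lay above the controls of their model, with log2 fold changes of 0.35 ± 0.22 and 0.48 ± 0.22. When the effects of both models were averaged, Cdkn2b was the 1 member of 30 at an unadjusted p under 0.05, against 4.21% of all genes, at a log2 fold change of 0.42 ± 0.15 and an edgeR adjusted p of 0.9999. Cdkn2b had an unadjusted p under 0.05 in 1 of the 8 fits that left out a library, the fit without EKO control replicate 1. Its EKO log2 fold change was 0.67 in that fit and 0.29 without EKO control replicate 2. Its neighbour Cdkn2a, the locus of p16 and p19ARF, had 1.33 and 0.362 CPM in BKO controls and 0.712 and 0.602 with the knockout, and 0.700 and 0.790 CPM in EKO controls and 2.15 and 1.64 with the knockout. The EKO libraries were the highest of the 8, with 49 and 35 reads against 17 and 17 in the controls, while in the BKO controls 1 library held 61 reads and the other 14. Its fold in EKO was 2.53 with an interval of 0.770 to 8.34.

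**Figure D3:**
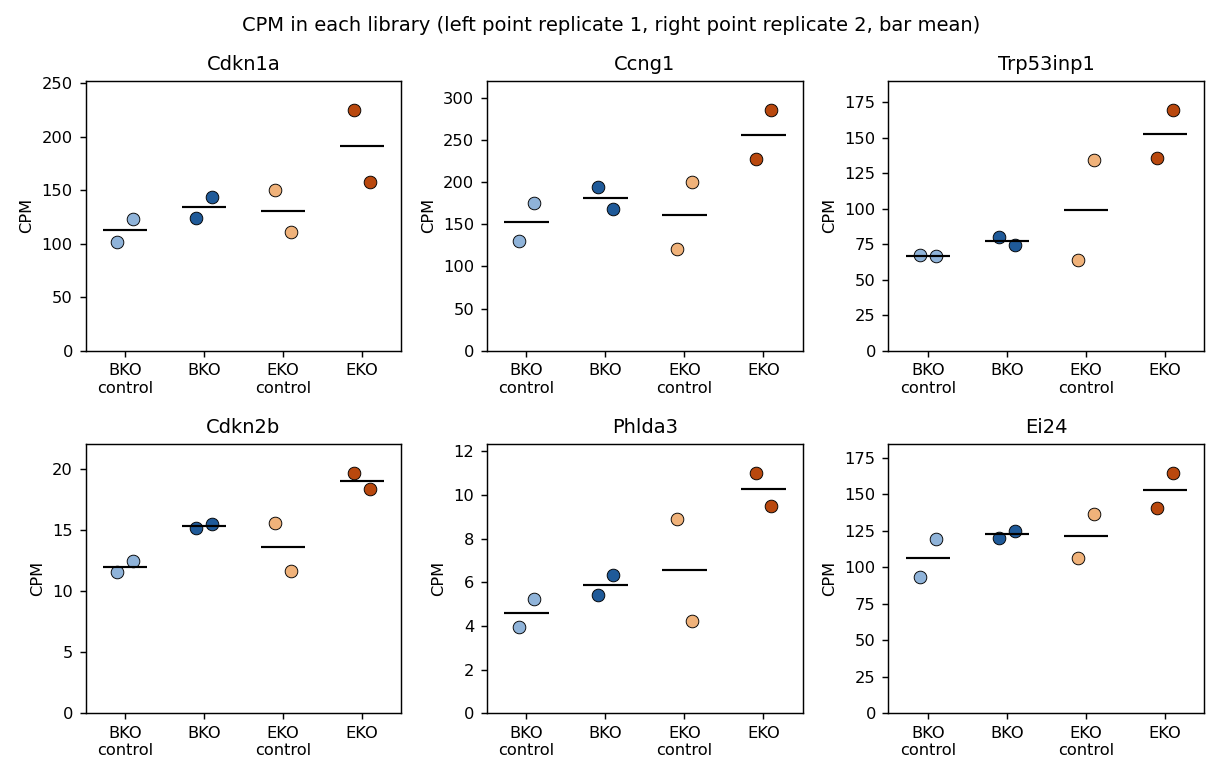
CPM in each of the 8 libraries for Cdkn1a, Ccng1, Trp53inp1, Cdkn2b, Phlda3 and Ei24, with a point per library and a bar at the group mean. For Ccng1 the BKO libraries overlap their controls, and in the other panels both knockout libraries lie above both controls in each model.

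Btg2, Plk2 and Plk3, which answer to growth factor and stress signals as early response genes as well as to p53, split by replicate in the EKO model. Btg2 was at 556 and 196 CPM in EKO controls and at 901 and 201 CPM with the knockout, against 196 to 237 CPM in the 4 libraries of the BKO model. Plk2, a polo-like kinase, was at 105 and 32.8 CPM against 99.5 and 33.5 CPM in the same order, and Plk3 at 99.95 and 65.8 CPM against 166 and 66.9 CPM. In each of these genes the libraries numbered 1 of the EKO model were the highest 2 of the 8. The share of all genes in that order was not counted. Same-numbered libraries of the EKO model deviated together over all tested genes (correlation 0.59), so such a split is not particular to these genes. The summed immediate early and isolation stress list (10 genes, none of them a member) split alike, at 1399 and 214 CPM in controls, 1677 and 234 CPM in knockouts and 306 to 521 CPM in the BKO model. Within the list, Hspa1a (1.44 and 4.07 CPM), Hspa1b (2.41 and 6.04) and Dnajb1 (38.3 and 40.3) were lower in EKO replicate 1 than in EKO replicate 2. In the EKO controls they were higher in replicate 1, so the sum does not stand for every gene of the list. The part of this list, or of the acinar and stellate RNA, in the levels of Btg2, Plk2 and Plk3 was not tested. Their SE in EKO was 0.73, 0.64 and 0.43 on the log2 scale, against a median of 0.33 over the 30 genes. Their EKO log2 fold changes of 0.55, -0.05 and 0.49 each changed sign when 1 library was left out.

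**Figure D4:**
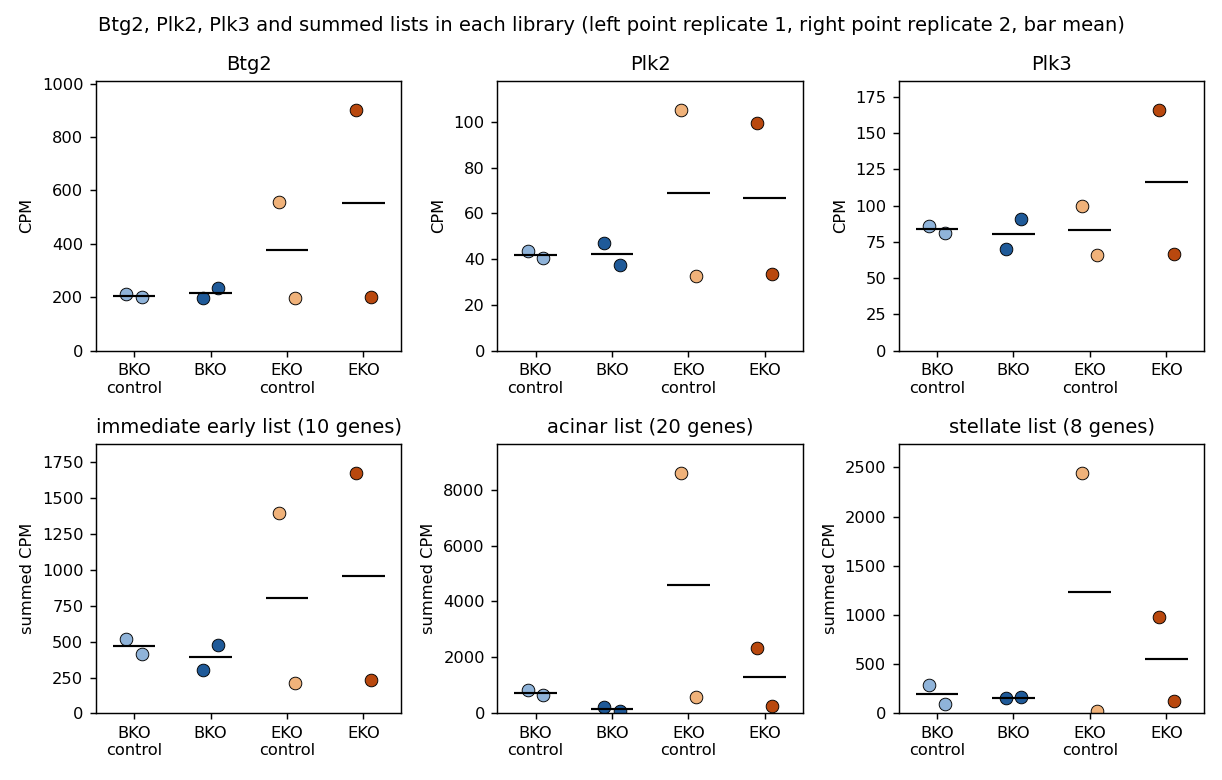
CPM of Btg2, Plk2 and Plk3 (top) and summed CPM of the immediate early, acinar and stellate lists (bottom) in each library, with a point per library and a bar at the group mean. The libraries numbered 1 of the EKO model are the highest in every panel, as for Btg2 at 556 and 901 CPM.

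Stress signals and metabolism came next. Phlda3, a p53 target that restrains AKT, was at 5.42 and 6.35 CPM in BKO libraries against 3.94 and 5.23 in their controls, and at 11.0 and 9.50 CPM in EKO libraries against 8.89 and 4.23. Knockout libraries lay above controls in both models at log2 fold changes of 0.36 ± 0.41 and 0.65 ± 0.41. In each model the controls lay farther apart than the nearest control and knockout libraries. The EKO value was 1.24 with EKO control replicate 1 left out and 0.21 with EKO control replicate 2 left out. Gdf15, a stress-induced hormone of the TGF-beta family, was at 9.81 and 2.86 CPM in EKO against 3.74 and 3.30, so that its EKO estimate of 0.85 ± 0.72 rested on EKO replicate 1 and was -0.30 without that library. Sesn2 was at 147 and 130 CPM in EKO against 70.4 and 131, with overlap, and Sesn1 at 23.2 and 56.0 CPM against 27.1 and 58.3. Unlike Btg2, Sesn1 and the ribonucleotide reductase subunit gene Rrm2b were lower in the libraries numbered 1 of the EKO model. Rrm2b was at 33.6 and 50.8 CPM in knockouts against 30.3 and 63.3. Other members lower in replicate 1 than in replicate 2, in EKO controls and in EKO, included Trp53inp1, Ccng1, Xpc, Casp9, Ei24 and Ddb2. Zmat3, an RNA-binding protein gene and p53 target, had log2 fold changes of 0.07 ± 0.25 and 0.25 ± 0.25.

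Of the DNA repair genes, Xpc, the damage sensor of nucleotide excision repair, had 33.6 and 35.2 CPM in BKO controls and 38.4 and 46.5 with the knockout, and 26.0 and 42.8 CPM in EKO controls and 39.2 and 54.4 with the knockout. The groups were apart in BKO and overlapped in EKO, at log2 fold changes of 0.30 ± 0.28 and 0.44 ± 0.28. Ddb2, its partner in recognising ultraviolet damage, lay below the controls in BKO (8.08 and 8.59 CPM against 9.37 and 8.72) and above them in EKO (10.7 and 11.9 CPM against 7.57 and 10.3), as did 1.25% of all genes in either order. A share of 23.8% of its exon bases overlaps Acp2 on the other strand, and whether counting used strand is not given in the sources used here. Polk, a translesion polymerase gene, had estimates of -0.12 ± 0.25 and -0.05 ± 0.25, Rrm2b 0.01 ± 0.37 and -0.15 ± 0.37, and the exonuclease gene Aen 0.00 ± 0.24 and 0.31 ± 0.24.

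The death receptors and other death-promoting targets showed no common direction. Fas, the receptor of Fas ligand, was at 13.4 and 7.39 CPM in BKO libraries against 9.35 and 4.37 in their controls, and at 2.01 and 2.25 CPM in EKO libraries against 5.18 and 1.30. Its groups overlapped in both models, and its highest and lowest libraries in the BKO controls and the EKO controls differed by 2.14-fold and 3.98-fold. Its EKO estimate of -0.61 ± 0.72 was 0.67 with EKO control replicate 1 left out. Eda2r was at 5.91 and 4.17 CPM in EKO against 3.54 and 2.28, apart, and Tnfrsf10b at 9.06 and 6.88 CPM against 7.16 and 2.79, with overlap, at log2 fold changes of 0.79 ± 0.42 and 0.68 ± 0.48. The Eda2r value was 0.51 without EKO control replicate 2 and 0.52 without EKO replicate 1. Perp, a desmosome-associated p53 target, was at 31.6 CPM in EKO control replicate 1 and at 9.52 to 16.9 CPM in the other 7 libraries. Its EKO estimate of -0.66 ± 0.42 was close to 0 without that control and -1.12 without EKO control replicate 2. Ei24, an endoplasmic reticulum protein gene induced by p53, had 93.6 and 119 CPM in BKO controls and 120 and 125 with the knockout, and 106 and 137 CPM in EKO controls and 140 and 165 with the knockout, apart in both models by less than the distance between the controls. Its log2 fold changes were 0.20 ± 0.20 and 0.33 ± 0.20, the latter 0.13 with EKO control replicate 1 left out and 0.53 with EKO control replicate 2 left out.

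In the fit of all 8 libraries the caspases and Apaf1 spanned a narrow range of estimates, from -0.10 to 0.08 in BKO and from -0.05 to 0.12 in EKO. The range was wider over the alternatives. EKO estimates then ran from -0.42 to 0.43 for Apaf1, from -0.22 to 0.53 for Casp9 and from -0.32 to 0.51 for Casp6. Casp9 was at 14.7 and 16.7 CPM in BKO libraries against 16.0 and 17.2 in their controls, and at 18.04 and 27.7 CPM in EKO libraries against 15.9 and 26.1. Apaf1, the scaffold on which caspase-9 is activated, had 25.4 and 18.02 CPM in BKO controls and 22.9 and 17.9 with the knockout, and 24.2 and 13.1 CPM in EKO controls and 19.2 and 16.8 with the knockout. The groups of both genes overlapped in both models, with 95% intervals of the fold in EKO of 0.645 to 1.84 for Casp9 and 0.544 to 1.72 for Apaf1. Of the exon bases of Casp9, 3.62% overlap the acinar genes Cela2a and Ctrc on the other strand. Casp8 was at 20.4 and 19.7 CPM in EKO against 30.7 and 10.5, with both EKO libraries between the controls. Its EKO log2 fold change of -0.04 ± 0.47 was 0.90 with EKO control replicate 1 left out and -0.61 with EKO control replicate 2 left out.

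**Figure D5:**
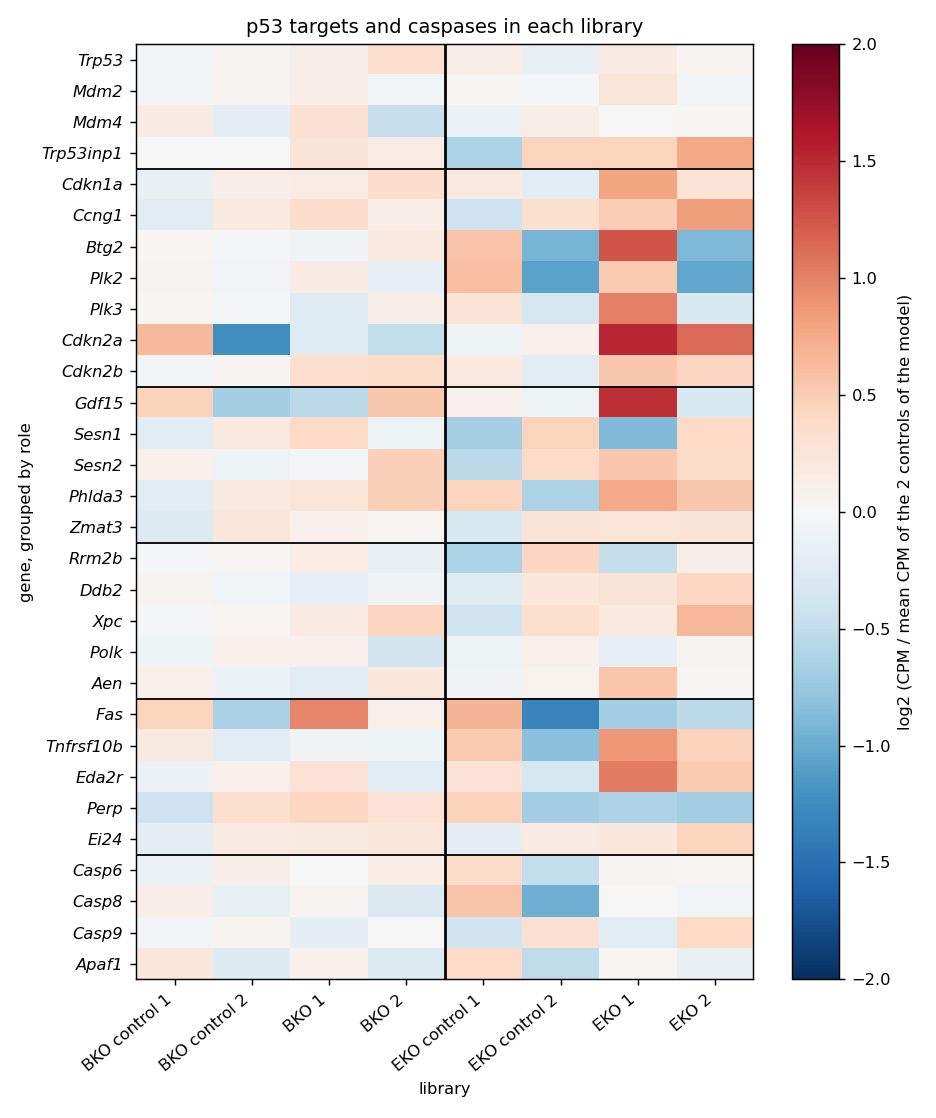
Each of the 30 genes (rows, grouped by role) in each of the 8 libraries (columns) as log2 of its CPM over the mean CPM of the 2 controls of the model, with red above and blue below. Replicates of a group can differ widely, as for Btg2 at 901 and 201 CPM in EKO.

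No difference between the EKO and BKO effects was shown for any of the 30. The difference between the 2 log2 fold changes passed for 0 of the 30 after adjustment and for 0 at an unadjusted p under 0.05, against 0.0% and 1.01% of all genes. The latter count was 4 with EKO control replicate 2 left out, against 3.8% of all genes in that fit, and 2 with EKO control replicate 1 left out, against 3.75%. It was 1 without BKO control replicate 2 (0.695% of all genes) and 1 without EKO replicate 2 (1.26%). The largest differences were 1.71 ± 0.997 for Cdkn2a and -1.21 ± 1.01 for Fas, and both turned on single libraries. Cdkn2a was at 0.49 without BKO control replicate 1 and 2.36 without BKO control replicate 2, and Fas at 0.07 with EKO control replicate 1 left out and -1.88 with EKO control replicate 2 left out. For Cdkn1a it was 0.30 ± 0.34 and for Ccng1 0.43 ± 0.40, with 95% intervals of -0.52 to 1.13 and -0.54 to 1.40, so neither a like nor an unlike response of the models was shown.

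Between the controls of the 2 Cre lines, Casp6 was the 1 member of 30 at an unadjusted p under 0.05, against 5.54% of all genes, and did not pass after adjustment (edgeR adjusted p = 0.890), where 0.00665% of all genes did. It was also the 1 member whose control groups did not overlap, higher in the EKO controls, against 14.4% of all genes, and 0 lay lower, against 15.5%. Members at an unadjusted p under 0.05 numbered 0 without any 1 library of the BKO model or either EKO library. They numbered 6, without Casp6, when EKO control replicate 1 was left out, where 10.8% of all genes had such a p, and 4, with Casp6, when EKO control replicate 2 was left out, where 11.2% had. Casp6 was at 8.26 and 9.03 CPM in BKO libraries against 7.51 and 8.85 in their controls, and at 14.7 and 14.4 CPM in EKO libraries against 18.2 and 10.0. All 4 libraries of the EKO model lay above all 4 of the BKO model. The share of all genes in that order was not counted, so it adds nothing to the test of the controls. The log2 fold change between the controls was 0.79 ± 0.32. It was 0.30 with EKO control replicate 1 left out and 1.15 with EKO control replicate 2 left out. Model, Cre line and any sequencing run cannot be told apart here. The highest of the 4 libraries of the EKO model, EKO control replicate 1, was also the one with the most acinar and stellate RNA. The part of that RNA in the Casp6 level was not tested.

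Other genes of the pathway were taken from lists chosen by role. Of 28 further p53 targets tested, 0 passed after adjustment in BKO, EKO or their average, and medians were 0.05 in BKO and 0.03 in EKO on the log2 scale. Among them Ccnd1, which encodes cyclin D1 and drives entry into the cell cycle, had an unadjusted p under 0.05 in EKO, at 85.5 and 93.4 CPM against 125 and 171 in controls. Its log2 fold change was -0.73 ± 0.19 (edgeR adjusted p = 1), and the BKO libraries were at 102 and 89.4 CPM against 102 and 114. In the average of both models Ckap2, a spindle protein gene, had an unadjusted p under 0.05 too, at 0.72 ± 0.30. Of 12 tested upstream kinases and partners, such as Atm and Chek2, of 22 other caspases and death genes and of 10 other inhibitors and retinoblastoma genes, 0 reached an unadjusted p under 0.05 in BKO, EKO or their average. Over all genes the share was 0.977% in BKO, 3.7% in EKO and 4.21% in the average. The EKO medians of these 3 lists were -0.06, 0.03 and -0.01, and 4 of the 12, 13 of the 22 and 5 of the 10 lay above 0. Of the 28 further targets 16 did, against 48.6% of all genes.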

How the data were processed

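RNA of isolated islets, left for 4 h in medium with 10% serum, was made into stranded poly(A) libraries from about 100 ng, per the labels' protocols. The authors deposited raw counts, whole reads per gene symbol; TopHat, HTSeq and mm9 are listed by the submitters' processing notes, with no version given in the sources used here. Reads with several alignments (31.6% to 39.7% of each total), reads outside genes (8.19% to 11.1%) and ambiguous reads (0.105% to 0.127%) are rows of that table that name no gene and were left out. The authors also deposited, per the file headers, log2 fold changes and p-values of their own comparisons. Only gene names, the smallest absolute log2 fold changes and the number of genes with an adjusted p under 0.05 were taken from them.

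Differences were tested with edgeR 4.0.16 (R 4.3.3; TMM, filterByExpr with a count minimum of 10, glmQLFit, glmQLFTest) in 1 fit of 8 libraries in 4 groups, with Benjamini-Hochberg adjustment over 15041 genes and 0.05 as threshold. Contrasts were BKO and EKO against their controls, their average, their difference, and control against control. Replicates differed beyond sampling noise (chi-square per degree of freedom 68.4 to 224). Alternatives used DESeq2 1.42.0 and limma 3.58.1, other scaling and filtering, fits per model, the replicate block, covariates and omission of libraries. The scripts were tested on simulated data.

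The members, lists and tests were chosen with earlier results of these data known. CPM in every library was to be given for members at an unadjusted p under 0.05 in any contrast, members apart in the same direction in both models, and Trp53, Cdkn1a, Mdm2, Ccng1, Casp9 and Apaf1, and for list genes at most 4 a list with p under 0.05; Btg2, Plk2, Plk3, Cdkn2a, Gdf15, Xpc, Ddb2, Fas, Perp, Casp8 and other genes given by library were added after their values were seen. Older symbols were matched through RefSeq synonyms, and Fam212b had no row. Exon lengths are GENCODE M21 (GRCm38), a later build than mm9. Intervals and CPM cover 2 libraries a group.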

Additional observations from a re-analysis of the deposited data

Results flagged for a closer look

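Ddb2 lay on opposite sides of the controls in the 2 models. Both BKO libraries lay below both of their controls, at 8.08 and 8.59 CPM against 9.37 and 8.72, and both EKO libraries lay above both of theirs, at 10.7 and 11.9 CPM against 7.57 and 10.3. The difference between the log2 fold changes was 0.46 ± 0.36 (SE, n = 2 per group) with an edgeR adjusted p of 1, so the difference itself did not pass. Such a split was seen in 1 of the 30 genes and in 1.25% of all genes tested.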

How the results depend on the processing

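No member passed after adjustment in any comparison under any of the 17 alternatives. Of 902 values of 11 members under them, 72 changed sign, none of them past the threshold, and the cause was not tested. The 11 were the members planned to be given by library, partly chosen for their p or for groups apart in both models. They leave out members with wide EKO ranges across 0, such as Btg2 (-0.90 to 1.45), Fas (-1.28 to 0.78) and Casp8 (-0.61 to 0.90). Genes called among all genes were 9 (BKO), 89 (EKO), 94 (average), 6 (difference) and 216 (controls) with DESeq2 on 18384 genes without the filter, which changes tool and filter together, against 0, 1, 1, 0 and 7 with edgeR on those genes and 0, 1, 1, 0 and 1 with the filter. The EKO call was 0 in a fit of 4 libraries and 2 without both EKO-model libraries numbered 1, an alternative added after seeing the data like the immediate early covariate, with which the average had 2 and the controls 31. The controls had 6 with the acinar covariate and 62 without those libraries. Without 1 replicate at a time the calls were 1 to 2 in EKO, 1 to 2 in the average and 0 to 5 between controls.

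Members at an unadjusted p under 0.05 numbered 2 in BKO, 7 in EKO, 7 in the average and 5 between controls with the acinar covariate, where 7.18%, 7.32%, 11.1% and 13.3% of all genes had such a p. With the immediate early covariate they were 2, 6, 6 and 5, and 2 for the difference, where 6.6%, 8.44%, 9.22%, 11.4% and 6.3% of all genes had. The EKO 7 were Cdkn1a, Phlda3, Eda2r, Plk2, Tnfrsf10b, Btg2 and Cdkn2b, all higher, with a smallest adjusted p of 0.478. Without both EKO-model libraries numbered 1 there were 3 in EKO, 4 in the average, 2 for the difference and 8 between controls, against 7.27%, 8.36%, 4.45% and 17.3% of all genes. EKO had 1 and the average 2 without the filter, with DESeq2 and with limma-voom. Over all genes the shares were in that order 3.1%, 3.78% and 2.97% in EKO and 3.51%, 4.32% and 4.12% in the average. Without 1 replicate at a time there were 0 to 5 in EKO and in the average, 0 to 4 for the difference and 0 to 6 between controls, with 2.48% to 10.3% (EKO), 2.02% to 9.55% (average), 0.531% to 3.8% (difference) and 2.85% to 11.2% (controls) of all genes, and the EKO median was 0.19 to 0.33.

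Replicate numbers are shared across groups by label alone. Same-numbered libraries deviated together (correlation 0.24 in the BKO model and 0.59 in the EKO model, over genes), a hint from the data and not from the design. With the replicate block there were 1 member in EKO, 4 in the average and 0 between controls at an unadjusted p under 0.05. Over all genes the shares in that fit were 4.22%, 5.01% and 6.0%. After adjustment it called 2 genes in the average and 2 between controls. Depth limits Cdkn2a, with 14 to 61 reads a library, more than the other members.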
